A study of Mus musculus with 24 samples.

Results

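The Runx family of transcription factors (Runx1, Runx2, Runx3) and their shared partner subunit, encoded by Cbfb, were followed across a series of cultured mouse limb buds. These 4 genes were taken by gene name from the 25844 genes of the joined count tables, without a threshold on their values but with earlier results of these data known. All 4 passed the filter on low counts in every comparison. Forelimb buds of CD1 embryos at gestation day 13 were cultured for 3 or 24 h in DMSO alone (the solvent control), 1 µM BPDP or 10 µM BPDP. BPDP is tert-butylphenyl diphenyl phosphate, an organophosphate ester added to materials to slow burning and to soften plastics. There were 4 poly-A RNA libraries in each of the 6 groups, and no group carried a genetic change. The samples were whole limb buds, a mixture of skeletal, muscle, vessel, blood and skin cells, so that fewer cells of a type and less RNA per cell cannot be told apart. In every library the 15 measured early cartilage genes summed to between 4627 and 16666 CPM (each count scaled by the library total) and the 14 skeletal muscle genes to between 1414 and 4146 CPM. Whether the replicates of a group are separate litters or cultures is not stated in the labels, and p-values therefore measure only the spread among these libraries, which may be technical. Library totals lay between 14165947 and 20823058 counts. The title of the series places its question in hedgehog signalling.

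Each Runx protein binds DNA through a Runt domain and does so stably as a pair with CBFβ, the product of Cbfb, which itself does not bind DNA. Runx2 is required for bone formation and drives the maturation of cartilage cells into hypertrophic chondrocytes, the cells that later give way to bone. Runx3 acts with Runx2 in that maturation and is also needed in sensory neurons and immune cells, while Runx1 is the family member of blood formation and is also expressed in early skeletal progenitors. In the growing skeleton Runx2 and Runx3 switch on Ihh, the hedgehog ligand of cartilage, and Ihh signals through Ptch1 and the Gli factors to the perichondrium, the layer around the cartilage where bone-forming cells arise.

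Runx1 (ENSMUSG00000022952) lies on chromosome 16 of mm10, 92601466 to 92826149, minus strand. Runx2 (ENSMUSG00000039153) lies on chromosome 17, 44495987 to 44814797, minus strand. Runx3 (ENSMUSG00000070691) lies on chromosome 4, 135120652 to 135177990, plus strand, and Cbfb (ENSMUSG00000031885) on chromosome 8, 105170674 to 105217989, plus strand. All values are counts over the whole gene and do not separate transcripts from alternative starts. Antisense genes overlapping Runx1 and Runx3 had at most 8 and 16 counts in a library. Runx2 overlaps 3 antisense genes with at most 15 counts each, and the opposite-strand protein-coding gene Supt3, which had 233 to 422 counts per library. Strand-specific preparation is not stated in the labels, so reads of Runx2 and Supt3 cannot be told apart where the genes overlap.

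The start regions of the 3 Runx genes share a short stretch that Cbfb does not have. They are shown because the Runt motif, the binding sequence of the Runx proteins themselves, occurs in pairs in them. Each line gives 30 bases 5′ to 3′ on the strand of the gene, from the RefSeq promoter windows of GRCm38.p6 (300 bases, from 250 before to 50 after the start), with the Runt motif in capitals. The motif was searched as TGTGGT on both strands, and the capitals are its reverse-strand form.
Runx1, start farther upstream, chr16:92826025-92826054, minus strand: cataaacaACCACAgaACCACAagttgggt
Runx2, chr17:44814583-44814612, minus strand: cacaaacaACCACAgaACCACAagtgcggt
Runx3, start farther upstream, chr4:135120503-135120532, plus strand: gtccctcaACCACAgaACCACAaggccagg

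These stretches lie 21 to 50 bases after the Runx1 start and 16 to 45 bases after the Runx2 start. In Runx3 the stretch lies 142 to 113 bases before the start. An identical run of 18 bases was found in 4 of 32851 RefSeq windows, those of Runx1, Runx2, Runx3 and the predicted gene Gm16225. The Runx2 window held 3 Runt motifs, and the upstream windows of Runx1 and Runx3 held 2 each. The windows at the downstream starts of Runx1 and Runx3 and the window of Cbfb held 0. Of all windows, 16.8% held at least 1 Runt motif, 1.81% at least 2 and 0.183% at least 3. The core of the binding sequence of the Gli factors, ACCACCC, was searched on both strands and was found in 0 of the 6 windows of the 4 genes, against 4.61% of all windows. A match or its absence describes these letters in these windows only.

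Cbfb was far more abundant than the Runx genes per gene length. On the FPKM scale (counts scaled by gene length and library total), the group mean of Cbfb lay between 50.4 and 60.1, while the 3 Runx genes together summed to between 8.94 and 27.3 in single libraries. Among the Runx genes, Runx3 had the highest mean FPKM in DMSO cultures at both times, with 10.9 ± 2.80 at 24 h and 7.39 ± 1.75 at 3 h (SD, n = 4 each). Runx2 followed with 7.94 ± 1.29 FPKM at 24 h and 5.23 ± 1.07 FPKM at 3 h, and Runx1 was lowest with 3.31 ± 0.381 FPKM at 24 h and 2.22 ± 0.255 FPKM at 3 h. The order of Runx3 and Runx2 rested on gene length. By CPM Runx2 had the higher mean in DMSO, 51.3 against 42.5 at 24 h and 33.8 against 28.7 at 3 h. In DMSO replicate 2 of 24 h Runx2 was above Runx3 by FPKM as well (9.44 against 8.98). With BPDP at 24 h the order by mean FPKM was different. At 10 µM the means were 5.002 ± 0.796 FPKM for Runx1, 4.41 ± 0.942 FPKM for Runx2 and 2.91 ± 0.543 FPKM for Runx3. At 1 µM they were 4.66 ± 0.726, 4.71 ± 0.694 and 2.62 ± 0.588 FPKM for Runx1, Runx2 and Runx3. Runx3, first of the family by mean FPKM in DMSO, was the lowest of the 3 genes at both doses, and Runx1 and Runx2 differed by less than their spread.

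**Figure D1:**
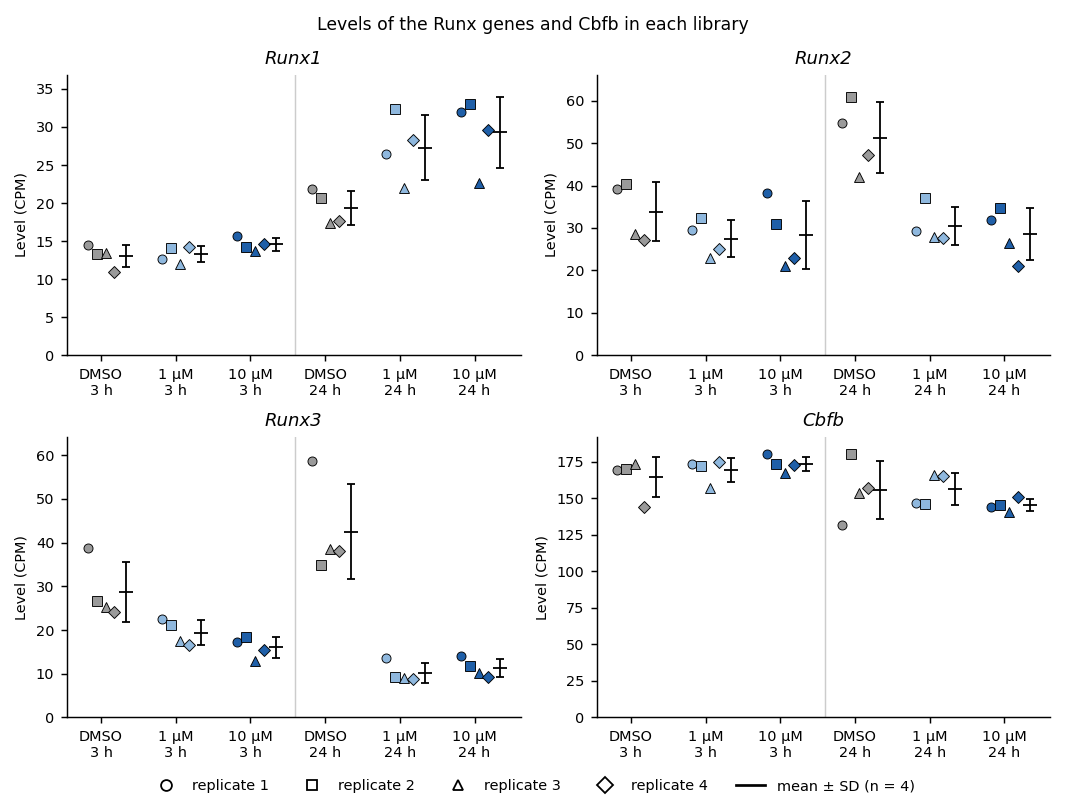
CPM of Runx1, Runx2, Runx3 and Cbfb (1 panel each, vertical axis from 0) in each of the 24 libraries, by time and dose; symbols mark replicate numbers and bars the mean ± SD of 4 libraries. At 24 h the 8 BPDP libraries lie below the 4 DMSO libraries for Runx3 and Runx2 and above them for Runx1, while the ranges of Cbfb overlap.

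Runx3 had the largest log2 fold changes of the 4 genes in the comparisons with DMSO at 24 h. At 24 h it had 58.6, 34.9, 38.4 and 38.1 CPM in DMSO cultures (replicates 1 to 4), 13.6, 9.34, 9.03 and 8.78 CPM with 1 µM, and 14.0, 11.9, 10.1 and 9.22 CPM with 10 µM. All 8 treated libraries were below all 4 controls, and both doses overlapped each other. Runx3 fell to 11.3 ± 2.11 CPM with 10 µM, against 42.5 ± 10.9 CPM in DMSO (SD, n = 4 each), a 3.74-fold lower level. The log2 fold change was -1.90 (SE 0.197, 95% interval -2.33 to -1.48, edgeR quasi-likelihood test with Benjamini-Hochberg adjusted p = 0.000341). In that comparison 6.21% of the genes tested passed an adjusted p of 0.05 ("called"), 2.77% higher and 3.44% lower, and the groups of 13.5% of genes did not overlap. The fit blocked on replicate number called 1645 genes, against 963 without the block, and without 1 library between 491 (10 µM replicate 4) and 1242 (DMSO replicate 2). The count was more than 1.5 times lower than 963 without DMSO replicate 4 or any 1 of the 10 µM libraries. Runx3 ranked 17 of 15508 genes by p.

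With 1 µM at 24 h Runx3 fell to 10.2 ± 2.28 CPM, against the same 42.5 ± 10.9 CPM in DMSO (SD, n = 4 each). The log2 fold change was -2.08 (SE 0.213, 95% interval -2.54 to -1.62, edgeR adjusted p = 0.00119), a 4.23-fold lower level. At this dose 0.077% of genes were called and the groups of 3.48% did not overlap. Runx3 ranked 5 of 15578 genes by p, among called genes that include the hedgehog targets Ptch1 and Hhip (lower) and Ihh (higher), Hhip losing its call in 7 of 8 fits that left out 1 library (adjusted p up to 0.168). Both doses share the DMSO libraries they were compared with. DMSO replicate 1 stood above the other controls, and without it the log2 fold changes were -1.68 with 10 µM and -1.86 with 1 µM, with edgeR adjusted p = 0.00014 and 0.000695.

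At 3 h the group means of Runx3 were ordered by dose. The levels were 38.8, 26.7, 25.2 and 24.2 CPM in DMSO, 22.5, 21.0, 17.6 and 16.6 CPM with 1 µM, and 17.3, 18.5, 13.0 and 15.3 CPM with 10 µM. No treated library reached the lowest control, while the ranges of both doses overlapped. With 10 µM the log2 fold change was -0.91 (SE 0.156, 95% interval -1.24 to -0.57), but it did not pass the threshold (edgeR adjusted p = 0.067). Runx3 ranked 8 of 15520 genes in a comparison in which 0.00644% of genes were called, the single gene being Dhrs3 (log2 fold change -1.07, SE 0.092, adjusted p = 0.000183, named after its value was seen), and 9.73% did not overlap. Other settings did pass: with DESeq2 the adjusted p was 0.000111, without the count filter 0.0059, and in 1 fit of all 24 libraries 0.0421. With edgeR it also passed with the replicate number as a block (0.00982) and in replicates 3 and 4 alone (0.0316). It did not pass in replicates 1 and 2 alone (0.583) or in any of 8 fits that left out 1 library. For 1 µM at 3 h the log2 fold change was -0.54 (95% interval -0.86 to -0.23, edgeR adjusted p = 0.928). In this comparison 0% of 15446 genes were called, with 801 genes at an unadjusted p under 0.05 and 0 genes called by DESeq2, and the groups of 2.23% did not overlap.

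Runx3 fell over culture time with 1 µM, whereas its mean in DMSO was higher at the later time. In DMSO the 24 h libraries averaged 42.5 ± 10.9 CPM and the 3 h libraries 28.7 ± 6.79 CPM, with overlapping ranges (log2 fold change 0.59, 95% interval 0.15 to 1.04, edgeR adjusted p = 0.0954). In that comparison 9.55% of genes were called, 5.45% higher and 4.1% lower, and 16% did not overlap. Runx3 was not called there, though it was with DESeq2 (adjusted p = 0.0354), and the log2 fold change was 0.37 without DMSO replicate 1 at 24 h. With 1 µM Runx3 fell to 10.2 ± 2.28 CPM at 24 h, against 19.4 ± 2.77 CPM at 3 h (log2 fold change -0.94, SE 0.167, edgeR adjusted p = 0.000832, 22.1% of genes called). With 10 µM it averaged 11.3 ± 2.11 CPM at 24 h and 16.0 ± 2.40 CPM at 3 h (-0.39, 95% interval -0.72 to -0.07, edgeR adjusted p = 0.064, 31.7% of genes called). With the replicate number as a block this last adjusted p was 0.0338.

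The effect of BPDP on Runx3 itself differed between the times. In 1 edgeR fit of all 24 libraries, the log2 fold change with 10 µM was lower at 24 h than at 3 h by 0.99 (value -0.99, SE 0.267, adjusted p = 0.0407, 2.59% of genes called). For 1 µM the difference was -1.54 (SE 0.267, adjusted p = 0.0188, 0.0359% of genes called). Leaving out 1 library kept the values between -1.16 and -0.78 for 10 µM and between -1.72 and -1.32 for 1 µM, but often ended the calls. The call for 10 µM ended without DMSO replicate 2, 3 or 4 or 10 µM replicate 1, 2 or 4 of 3 h, and without DMSO replicate 1 or 10 µM replicate 2, 3 or 4 of 24 h (adjusted p up to 0.0917). The call for 1 µM ended without DMSO replicate 2, 3 or 4 or 1 µM replicate 1 or 2 of 3 h, and without 1 µM replicate 2, 3 or 4 of 24 h (adjusted p up to 0.0877). Blocked on replicate number, both calls held, with adjusted p = 0.000762 for 10 µM and 1.21e-05 for 1 µM. For Runx1, Runx2 and Cbfb the difference was not called at either dose, with values of 0.51, -0.50 and -0.09 for 10 µM and 0.43, -0.48 and -0.07 for 1 µM. Blocked on replicate number, the Runx2 value for 10 µM (-0.50) had an adjusted p of 0.0332.

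Runx2, the regulator of bone and hypertrophic cartilage, was also lower in treated cultures at 24 h. It had 54.8, 61.0, 42.1 and 47.3 CPM in DMSO, 29.2, 37.1, 27.9 and 27.6 CPM with 1 µM, and 32.0, 34.7, 26.4 and 21.0 CPM with 10 µM. Neither dose overlapped the controls, which held for 13.5% of all genes with 10 µM and 3.48% with 1 µM. With 10 µM Runx2 fell to 28.5 ± 6.09 CPM, against 51.3 ± 8.31 CPM in DMSO (SD, n = 4 each; log2 fold change -0.83, SE 0.149, 95% interval -1.15 to -0.51, edgeR adjusted p = 0.00586), 1.77-fold lower. This call held without each of the 8 libraries in turn (adjusted p at most 0.0251).

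With 1 µM Runx2 averaged 30.4 ± 4.48 CPM, and the log2 fold change was -0.76 (SE 0.136, 95% interval -1.05 to -0.47). It did not pass (edgeR adjusted p = 0.0848) although it ranked 14 of 15578 genes, and with the replicate number as a block the adjusted p was 0.0352. It also passed without the count filter (adjusted p = 0.00431), with DESeq2 (0.000562), in 1 fit of all 24 libraries (0.0363), and without 1 µM replicate 2 (0.03).

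At 3 h Runx2 had 39.3, 40.3, 28.5 and 27.2 CPM in DMSO, 29.6, 32.4, 22.8 and 25.1 CPM with 1 µM, and 38.4, 30.9, 21.0 and 23.0 CPM with 10 µM. The ranges of all 3 conditions overlapped. The log2 fold changes were -0.32 with 10 µM (95% interval -0.70 to 0.05, edgeR adjusted p = 0.392) and -0.28 with 1 µM (95% interval -0.55 to -0.01, adjusted p = 0.947). In each of the 6 groups replicates 1 and 2 were above replicates 3 and 4. Taking replicates 1 and 2 alone, the 24 h log2 fold change of Runx2 was -0.77 at either dose, and with replicates 3 and 4 alone it was -0.90 with 10 µM and -0.76 with 1 µM.

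Runx2 rose over culture time in DMSO, to 51.3 ± 8.31 CPM at 24 h, against 33.8 ± 6.92 CPM at 3 h (log2 fold change 0.62, SE 0.135, edgeR adjusted p = 0.011). The 2 times did not overlap, which held for 16% of all genes. With BPDP no difference in Runx2 between the times was called. Runx2 had 28.5 ± 6.09 CPM at 24 h and 28.3 ± 7.94 CPM at 3 h with 10 µM (log2 fold change 0.12, 95% interval -0.29 to 0.53, adjusted p = 0.663). With 1 µM it had 30.4 ± 4.48 CPM at 24 h and 27.5 ± 4.33 CPM at 3 h (0.14, 95% interval -0.13 to 0.42, adjusted p = 0.476). The treated 24 h cultures overlapped the DMSO cultures of 3 h in Runx2 level.

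Runx1, the family member of blood formation, was higher in treated cultures at 24 h. It had 21.9, 20.7, 17.4 and 17.6 CPM in DMSO, 26.5, 32.3, 22.0 and 28.3 CPM with 1 µM, and 31.9, 33.04, 22.7 and 29.6 CPM with 10 µM. All treated libraries were above all controls, the lowest treated ones by less than 1 CPM. Of all genes, 13.5% did not overlap with 10 µM and 3.48% with 1 µM. With 10 µM Runx1 rose to 29.3 ± 4.66 CPM, against 19.4 ± 2.23 CPM in DMSO (SD, n = 4 each; log2 fold change 0.61, SE 0.136, 95% interval 0.32 to 0.90, edgeR adjusted p = 0.0188), 1.53-fold higher. The call was lost without DMSO replicate 4 or without 10 µM replicate 1, 2 or 4, with adjusted p = 0.0592 to 0.07. With 1 µM it averaged 27.3 ± 4.26 CPM and did not pass (log2 fold change 0.48, 95% interval 0.16 to 0.80, edgeR adjusted p = 0.547).

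At 3 h no difference in Runx1 was detected. It had 14.5, 13.3, 13.4 and 10.9 CPM in DMSO, 12.7, 14.1, 12.1 and 14.3 CPM with 1 µM, and 15.7, 14.2, 13.8 and 14.6 CPM with 10 µM, with overlapping ranges. The log2 fold changes were 0.10 with 10 µM (95% interval -0.16 to 0.35) and 0.04 with 1 µM (-0.22 to 0.30). Runx1 rose over culture time in all 3 conditions. It rose by 0.59 on the log2 scale in DMSO (SE 0.138, edgeR adjusted p = 0.0151), by 1.04 with 1 µM (SE 0.131, adjusted p = 4.31e-05) and by 1.11 with 10 µM (SE 0.119, adjusted p = 4.07e-06), and the 24 h and 3 h libraries did not overlap in any of them. The DMSO call was lost without DMSO replicate 3 or 4 of 3 h (adjusted p = 0.0521 and 0.0581). Over time 9.55% of genes were called in DMSO, 22.1% with 1 µM and 31.7% with 10 µM. In DMSO 16% of genes did not overlap, and that share was not computed for the treated groups.

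Cbfb, the common partner, had no difference called by edgeR in any comparison. At 24 h it had 131.5, 180.4, 153.5 and 157.2 CPM in DMSO, 146.8, 146.2, 165.8 and 165.0 CPM with 1 µM, and 144.0, 145.4, 140.7 and 150.6 CPM with 10 µM. The treated libraries lay inside the range of the controls. The 95% interval of the log2 fold change was -0.26 to 0.09 for 10 µM and -0.20 to 0.19 for 1 µM at 24 h. The matching intervals at 3 h were -0.13 to 0.15 for 10 µM and -0.07 to 0.20 for 1 µM. At 3 h it had 169.4, 170.2, 173.7 and 144.0 CPM in DMSO, 173.2, 172.1, 156.9 and 175.0 CPM with 1 µM, and 179.9, 173.6, 167.4 and 172.6 CPM with 10 µM. Between the times, Cbfb had a log2 fold change of -0.06 in DMSO (95% interval -0.25 to 0.12), -0.13 with 1 µM (-0.27 to 0.02) and -0.15 with 10 µM (-0.28 to -0.02, edgeR adjusted p = 0.0749). The last of these was called by DESeq2 (adjusted p = 0.0427). With 10 µM the 24 h and 3 h libraries of Cbfb did not overlap in CPM, which is scaled by library totals alone. In that comparison 31.7% of genes were called, and the share of genes without overlap was not computed.

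**Figure D2:**
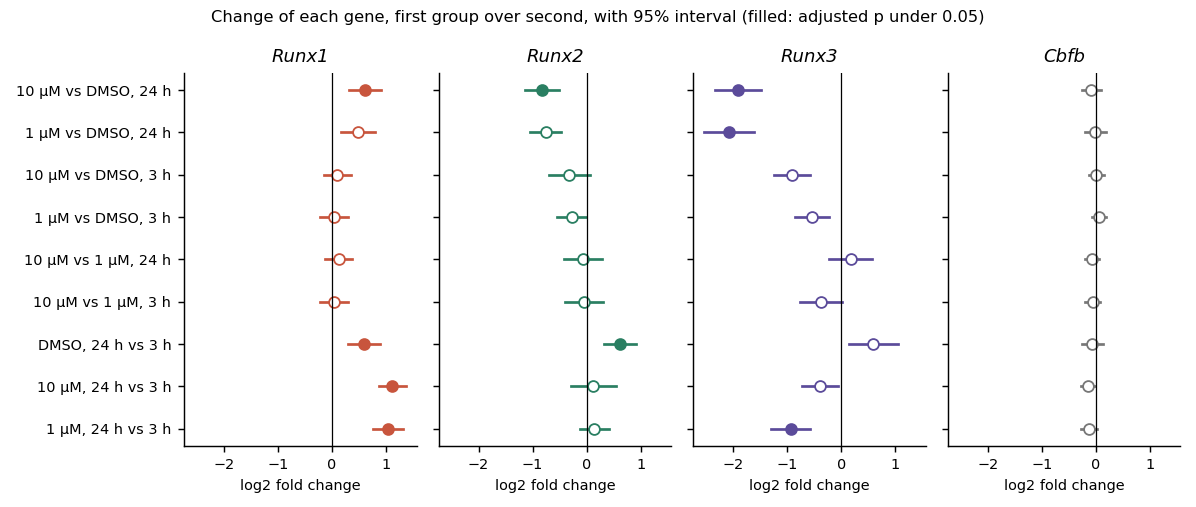
Log2 fold change of each gene (horizontal axis, 1 panel per gene) with its 95% interval for 9 comparisons, each named with the group on top of the ratio first; filled points passed an edgeR adjusted p of 0.05. Runx3 is at -1.90 and -2.08 with 10 and 1 µM at 24 h, Runx1 lies to the right of 0 there, and the intervals of Cbfb stay close to 0.

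The 2 doses were not told apart in any of the 4 genes. At 24 h the log2 difference of 10 µM over 1 µM was 0.12 for Runx1 (95% interval -0.12 to 0.37), -0.07 for Runx2 (-0.42 to 0.28), 0.17 for Runx3 (-0.23 to 0.58) and -0.08 for Cbfb (-0.21 to 0.05). None was called in the edgeR fit of 24 libraries, in which 3.35% of genes were. At 3 h the difference was -0.37 for Runx3 (95% interval -0.76 to 0.02, adjusted p = 0.605). For Runx1, Runx2 and Cbfb it was 0.04, -0.05 and -0.06. At 3 h 0% of 16691 genes were called between the doses, with 1385 genes at an unadjusted p under 0.05 and 4 genes called by DESeq2.

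The family as a whole was less abundant in treated cultures at 24 h. The summed FPKM of Runx1, Runx2 and Runx3 was 12.3 ± 1.97 with 10 µM and 11.99 ± 1.41 with 1 µM at 24 h, against 22.2 ± 3.58 in DMSO (SD, n = 4 each). The range was 19.4 to 27.3 FPKM in DMSO, 10.4 to 13.7 FPKM with 1 µM and 10.6 to 14.1 FPKM with 10 µM, so neither dose overlapped the controls. At 3 h the sum was 12.3 to 18.5 FPKM in DMSO, 10.1 to 12.8 FPKM with 1 µM and 8.94 to 13.1 FPKM with 10 µM, with overlapping ranges. As a percentage of the Cbfb level, the sum was 24.5 ± 4.02% with 10 µM and 22.4 ± 4.10% with 1 µM at 24 h, against 42.1 ± 11.9% in DMSO. In DMSO at 3 h it was 26.0 ± 4.06%.

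Within that sum Runx3 held a smaller share and Runx1 a larger one. Runx3 made up 23.6 ± 1.94% of the summed FPKM with 10 µM and 21.9 ± 4.42% with 1 µM at 24 h, against 49.0 ± 6.03% in DMSO. Runx1 made up 40.7 ± 4.64% with 10 µM and 38.8 ± 3.20% with 1 µM, against 15.003 ± 1.01% in DMSO. The lowest Runx1 share in a treated 24 h library was 36.1% and the highest in a control was 16.1%. Runx2 held 35.6 ± 3.78% with 10 µM and 39.3 ± 2.93% with 1 µM, against 36.0 ± 5.14% in DMSO, so its share differed by less than the spread. At 3 h Runx3 made up 49.6 ± 3.801% in DMSO, 43.4 ± 2.58% with 1 µM and 37.7 ± 2.62% with 10 µM. These shares describe levels of RNA per gene length, with no test of their own, since they restate the changes of the single genes.

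**Figure D3:**
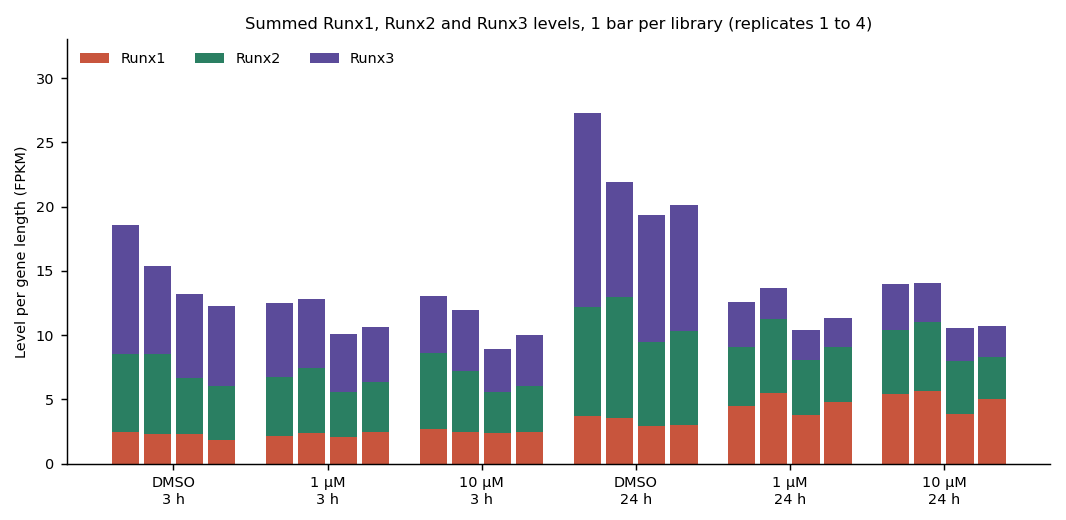
Summed FPKM of Runx1, Runx2 and Runx3 in each library (1 bar per library, replicates 1 to 4 from left to right within each group, bars from 0), stacked by gene. The 4 DMSO bars at 24 h reach 19.4 to 27.3 FPKM and the 8 BPDP bars 10.4 to 14.1 FPKM, with a thinner Runx3 segment and a taller Runx1 segment.

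Of 29 measured cofactors and modifiers, 1 rose and 2 fell with 10 µM at 24 h (median log2 fold change 0.09, against -0.02 for all genes). With the replicate number as a block 5 of them passed, counted in either direction, in a fit that called 1645 of 15508 genes. Twist2, which restrains Runx2 in early bone progenitors, fell to 16.5 ± 3.21 CPM, against 26.1 ± 0.929 CPM in DMSO (-0.65, SE 0.147, edgeR adjusted p = 0.0207). Tle3, a corepressor that Runx proteins recruit, fell by 0.44 (adjusted p = 0.00813), and Hipk2, a nuclear kinase, rose by 0.47 (adjusted p = 0.00625). Twist2 was not called in 3 of 8 fits that left out 1 library (adjusted p up to 0.068, without 10 µM replicate 2). At 24 h with 1 µM and at 3 h with either dose 0 of the 29 were called. In DMSO over time 1 rose, Wwtr1, the coactivator TAZ (0.58, adjusted p = 0.00939).

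Of 19 regulators placed upstream of Runx2 in the skeleton, 3 rose and 5 fell with 10 µM at 24 h (median log2 fold change -0.17). Pthlh, the signal that holds chondrocytes back from hypertrophy, fell to 3.92 ± 0.418 CPM, against 10.9 ± 1.89 CPM in DMSO (-1.47, SE 0.202, edgeR adjusted p = 0.0011). The bone morphogenetic protein gene Bmp7 (-0.88), the Wnt pathway factor gene Tcf7 (-0.84) and the homeobox genes Msx1 (-0.68) and Dlx5 (-0.55) also fell, while Bmp6 (0.85), Pth1r (0.59), which encodes the receptor of the Pthlh product, and Fgfr3 (0.48), which encodes a receptor that restrains chondrocyte growth, rose. Of 8 fits that left out 1 library, Msx1 was not called in 5, Dlx5 in 6 and Fgfr3 in 5 (adjusted p up to 0.133, 0.127 and 0.0819, without 10 µM replicate 2, 10 µM replicate 4 and DMSO replicate 4). At 24 h with 1 µM and at 3 h with either dose 0 of the 19 were called. Over time in DMSO 3 rose, Mef2c (0.93), Fgfr3 (0.72) and Nkx3-2 (0.48), and 2 fell, Msx2 (-1.004) and Shox2 (-0.44). Msx2 was not called in 7 and Nkx3-2 in 6 of 8 such fits (adjusted p up to 0.104 and 0.129, both without DMSO replicate 3 of 3 h).

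The listed targets of Runx2 and Runx3 were read in the same comparisons. Of 16 measured target genes of hypertrophic cartilage and bone, 2 rose and 0 fell with 10 µM at 24 h (median log2 fold change 0.27, against -0.02 for all genes). With the replicate number as a block 7 of 16 passed, counted in either direction and with Sp7 falling, in a fit that called 1645 of 15508 genes. Ihh rose to 131 ± 18.4 CPM, against 36.8 ± 9.21 CPM in DMSO (1.85, SE 0.141, edgeR adjusted p = 5.68e-05), and Fgf18, a growth factor of the perichondrium, rose by 0.56 (adjusted p = 0.0143, but 0.0548 without 10 µM replicate 1). Sp7, the factor that acts after Runx2 in osteoblasts, had 12.6 ± 4.01 CPM, against 20.8 ± 7.49 CPM in DMSO, and did not pass (-0.69, SE 0.248, adjusted p = 0.136), but it did at -0.70 with the replicate number as a block (0.0149) and at -0.88 in replicates 3 and 4 alone (0.0471).

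Col10a1, the collagen of hypertrophic cartilage, varied widely, with 97.7 ± 66.2 CPM against 80.0 ± 71.3 CPM (log2 fold change 0.32, SE 0.937, adjusted p = 0.902). Spp1, which encodes osteopontin, did the same (0.25, SE 0.896, adjusted p = 0.922). With 1 µM at 24 h, where Runx3 was 4.23-fold lower, Ihh alone of 16 targets was called (104 ± 8.27 CPM, against 36.8 ± 9.21 CPM in DMSO, 1.49, adjusted p = 0.000447, median of the list 0.14). Sp7 had -0.61 there (adjusted p = 0.719). At 3 h 0 of the 13 measured targets with 10 µM and 0 of the 14 with 1 µM were called. Over time in DMSO 4 of 15 measured targets rose and 0 fell (median 0.84, against 0.01 for all genes). They were the matrix protease gene Mmp9 (1.77), the phosphatase gene Alpl (1.37), Enpp1 (0.84), whose product makes pyrophosphate, and Sp7 (0.72, adjusted p = 0.0422, but up to 0.137 and not called in 6 of 8 fits that left out 1 library). Of all genes 5.45% were called higher and 4.1% lower. Other lists also rose, with 12 of 15 early cartilage genes called higher (median 1.02) and 9 of 13 skeletal muscle genes (0.90). The counts were 9 of 15 for macrophage genes (0.90) and 7 of 14 for epidermal genes (0.81). The erythroid, endothelial and joint and tendon lists each had 0 called higher and 2 called lower. The part of the Runx genes was not tested.

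**Figure D4:**
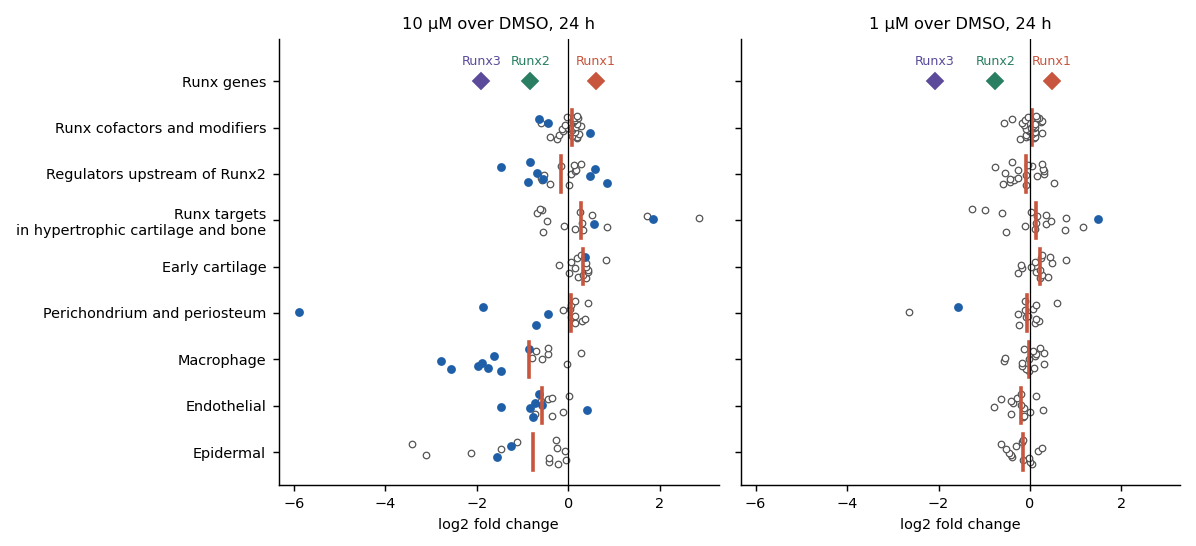
Log2 fold change of the measured genes of 8 lists (rows) with 10 µM (left panel) and 1 µM (right panel) over DMSO at 24 h; filled points were called, red bars are list medians and diamonds mark Runx1, Runx2 and Runx3 with no mark for a call. Runx3 is near -2 in both panels, while the macrophage list has its median at -0.86 with 10 µM and -0.01 with 1 µM.

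Markers of other cell types moved with 10 µM at 24 h. Of 15 measured macrophage genes 8 fell and 0 rose (median log2 fold change -0.86), among them Cx3cr1 (-2.78), the complement gene C1qa (-2.57) and Csf1r (-1.88), the receptor gene on which macrophages depend. The summed level of the macrophage list was 80.6 to 122 CPM with 10 µM, against 208 to 280 CPM in DMSO, and it was 197 to 281 CPM with 1 µM, where 0 of 15 were called (median -0.01). Of 14 endothelial genes 6 fell, among them Flt1 (-1.47) and Cdh5 (-0.77), and 1 rose, Erg (0.42, not called in 5 of 8 fits that left out 1 library, adjusted p up to 0.103), with 10 µM. Their sum was 439 to 516 CPM in DMSO, 413 to 492 CPM with 1 µM and 339 to 397 CPM with 10 µM. Of 14 epidermal genes 2 fell, Grhl3 (-1.55) and Krt5 (-1.26, adjusted p up to 0.056 in the 2 of 8 fits where leaving out 1 library ended its call), with sums of 1986 to 4443 CPM in DMSO, 1743 to 3805 CPM with 1 µM and 1206 to 1959 CPM with 10 µM. The part of these cell types in the changes of the Runx genes was not tested.

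Mast cells and megakaryocytes are cells in which Runx1 acts, and sensory neurons depend on Runx3. Of 6 measured mast cell and megakaryocyte genes 1 fell with 10 µM at 24 h, Cpa3 (-1.18, not called in 6 of 8 fits that left out 1 library, adjusted p up to 0.121), and the list summed to 23.6 to 47.8 CPM in DMSO, 24.0 to 43.7 CPM with 1 µM and 15.3 to 25.6 CPM with 10 µM. Of 9 sensory neuron genes 1 fell with 10 µM, Ntrk2 (-0.64). That list summed to 51.7 to 68.6 CPM in DMSO, 45.7 to 53.9 CPM with 1 µM and 40.5 to 48.7 CPM with 10 µM. Of 8 erythroid genes 0 were called. Of the skeletal lists, 1 of 15 early cartilage genes rose with 10 µM, Sox6 (0.36, not called in 6 of 8 such fits, adjusted p up to 0.126), and Sox9 had 0.28 (adjusted p = 0.217). The early cartilage list had a median log2 fold change of 0.33, against -0.02 for all genes, with 14 genes above 0 and 1 below. Of 13 joint and tendon genes 4 rose and 1 fell with 10 µM, with 5 genes above 0 and 8 below (median -0.02). Of 14 genes of perichondrium and periosteum 4 fell with 10 µM and 0 rose. Those that fell were the hedgehog-responsive Gli1 (-5.89) and Ptch1 (-1.86), and Aspn (-0.71) and Fgfr2 (-0.44, not called in 5 of 8 such fits, adjusted p up to 0.101). The list as a whole was not lower, with a median log2 fold change of 0.07, 9 genes above 0 and 5 below. Its sum was 6838 to 9550 CPM in DMSO and 7645 to 10512 CPM with 10 µM. With 1 µM only Ptch1 of these 14 was called (-1.57). Gli1 had a log2 fold change of -2.64 there and did not pass (edgeR adjusted p = 0.245). It passed without 1 µM replicate 1 (-3.24, adjusted p = 2.39e-06), in replicates 3 and 4 alone (-3.21, 9.19e-07), with DESeq2 (3.66e-06), in 1 fit of all 24 libraries (0.0023) and with the replicate number as a block (0.0342).

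The hedgehog readouts were also set beside Runx3 at 3 h. With 10 µM Ptch1 had 42.8 ± 9.37 CPM, against 45.1 ± 14.5 CPM in DMSO (log2 fold change -0.14, edgeR adjusted p = 0.784), and Gli1 had 34.7 ± 12.2 CPM, against 60.6 ± 13.5 CPM (-0.87, adjusted p = 0.143). With 1 µM Ptch1 had -0.05 and Gli1 -0.56. Ihh had -0.09 with 10 µM and -0.07 with 1 µM, and Pthlh -0.65 and -0.23. None of these passed the edgeR test at 3 h. Gli1 did pass with 10 µM in DESeq2 (adjusted p = 0.00264) and in replicates 3 and 4 alone (0.00192), and with the replicate number as a block at 10 µM (0.0072) and 1 µM (0.0065). Ptch1, Gli1, Ihh and Pthlh, like Runx3 (-0.91 and -0.54), all had values below 0 at both doses at 3 h.

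Genes with the closest pattern over the 6 groups were ranked for each member by the root mean square difference of group mean log2 CPM, after centring each gene on its own mean, among 14741 genes. For Runx3 the nearest was Ptch1, the hedgehog receptor gene (0.28 on the log2 scale), followed by Cdkl4, Batf3, Il17re and Serpina3k (0.29 to 0.31). Ptch1 was also the nearest and Batf3 the second nearest over the 24 single libraries, where Cdkl4, Il17re and Serpina3k were 1451st or farther. Other hedgehog genes were far from Runx3 over the 6 groups, Gli1 at rank 14692 (1.56) and Ihh at rank 14689 (1.55). For Runx2 the nearest were Prr22, Spns2, Pfkfb3, Bnip3 and Wnt9a (0.06 to 0.09), of which Wnt9a alone stayed among the nearest 100 over the single libraries (rank 26), and Sp7 ranked 7 (0.10). Runx2 and Runx3 differed from each other by 0.51. For Runx1 the nearest were Fzd5, Acsl4, Fndc3b, Loxl3 and AI593442 (0.07 to 0.08). For Cbfb they were Aifm1, Psmc6, Aggf1, Cdc23 and Ddx46 (0.01 to 0.02), where a level that hardly varies makes many genes alike. These ranks are descriptions over shared libraries and say nothing of shared function.

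**Figure D5:**
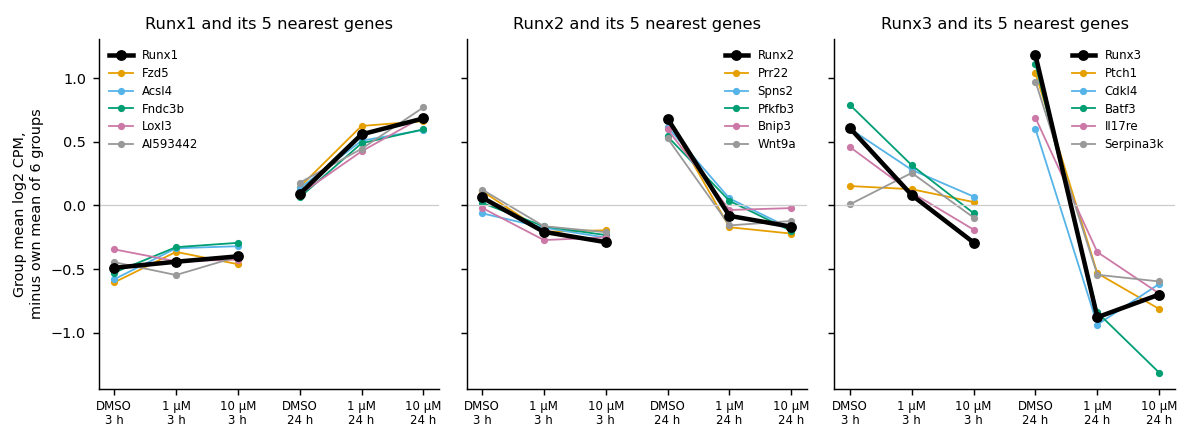
Group mean log2 CPM minus the gene's own mean over the 6 groups (vertical axis) for Runx1, Runx2 and Runx3 (black) and their 5 nearest genes (colours), by time and dose. Runx3 and Ptch1 are both highest in DMSO at 24 h and low with either dose at 24 h, while at 3 h the Runx3 points are lower with dose and those of Ptch1 nearly level.

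For Runx3 the authors' deposited table lists -1.58 (adjusted p = 7.06e-18) with 10 µM and -1.36 (1.72e-18) with 1 µM at 24 h, and -0.67 (0.00013) with 10 µM at 3 h. These values were closer to no change than those of DESeq2 run on the same counts (-1.90, -2.08 and -0.91). The order of the doses at 24 h was also the reverse. The reason was not tested, so the sizes are not directly comparable. For Runx2 the authors' deposited table lists -0.73 (2.03e-05) and -0.60 (0.000576) with 10 and 1 µM at 24 h, and for Runx1 0.55 (0.00136) and 0.37 (0.229). By the authors' deposited table, Runx3 with 10 µM at 3 h and Runx2 with 1 µM at 24 h therefore pass a threshold that they missed in the edgeR test, and Runx1 with 1 µM at 24 h misses it in both.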

How the data were processed

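Per the submitters' processing notes, mm10 was the build, and the tools were HTSeq 0.6.1, STAR 2.5, DESeq2 (given as version 2) and CASAVA 1.8. The authors deposited 5 pairwise tables with raw read counts per gene and library, FPKM per library, the signal of each group as a mean of normalised counts, a log2 fold change, and a p-value with its adjusted p-value. The 751392 count values present in more than 1 table showed 0 differences, and the tables were joined by gene identifier. The deposited FPKM equalled count over length and library total (largest relative difference 1.5e-07). CPM were computed over library totals.

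Each pair of groups was fitted on its own libraries with edgeR 4.0.16 (R 4.3.3; TMM scaling, filterByExpr with a minimum count of 10 and total of 15, robust quasi-likelihood test), with Benjamini-Hochberg adjustment over all genes tested and calls under 0.05. Doses, and effects between times, were contrasts in 1 fit of all 24 libraries. DESeq2 1.42.0 was an alternative. The test was checked on simulated data. Standard errors and 95% intervals reflect the spread among the 4 libraries of a group as well as the depth.

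The members, the gene lists and the tests were chosen with earlier results of these data known. Beside the 4 members, up to 4 called genes of each list with the largest change and a mean of at least 50 counts could be named, and Gli1, Ptch1, Ihh, Pthlh, Sp7, Col10a1, Spp1 and Sox9 always. Where a list had 5 or fewer calls in a direction, those given by name were named after their values were seen.

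Libraries share replicate numbers in their titles. Residuals of libraries with the same number correlated at over 0.1 in 4 of 4 pairs in both 24 h comparisons with DMSO (0.139 to 0.308 for 10 µM and 0.128 to 0.287 for 1 µM) and in both treated groups over time (0.122 to 0.182 for 10 µM and 0.103 to 0.237 for 1 µM), so the fit with the replicate number as a block stands beside those results where it changes a call. With 10 µM over time, however, the library of the same number was the best match for only 1 of 4 libraries. It was the best match for 3 of 4 with 1 µM over time, and at 24 h for 3 of 4 with 10 µM and 4 of 4 with 1 µM.

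An item withheld for evaluation is not reported here.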

Additional observations from a re-analysis of the deposited data

Results flagged for a closer look

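In 4 of 24 groups of 4 libraries (4 genes in 6 groups), 1 library lay far from the other 3 by Dixon's criterion, where chance gives about 1 in 20. Runx3 was highest in replicate 1 both in the 24 h DMSO cultures (58.6 CPM) and in the 24 h cultures with 1 µM (13.6 CPM). Cbfb was lowest in replicate 4 of the 3 h DMSO cultures (144 CPM) and in replicate 3 of the 3 h cultures with 1 µM (157 CPM).

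For Runx3 the log2 fold change against DMSO differed between 24 h and 3 h, by -0.99 for 10 µM and by -1.54 for 1 µM, tested as an interaction in 1 edgeR fit of 24 libraries (adjusted p = 0.0407 and 0.0188, 4 libraries per group). At 24 h every treated Runx3 library lay below every DMSO library at both doses, and likewise at 3 h. A count by replicate number therefore adds nothing. At 24 h the groups of 13.5% of genes did not overlap with 10 µM and of 3.48% with 1 µM. The shares at 3 h were 9.73% and 2.23%.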

How the results depend on the processing

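Direction was kept by the called changes of Runx1, Runx2 and Runx3 under every alternative run, while their calls depended on the setting. With 10 µM at 24 h, Runx1 was not called within replicates 1 and 2 (0.64) or 3 and 4 (0.59), and Runx2 (-0.77) and Runx3 (-1.845) not within replicates 1 and 2, where Runx3 with 1 µM (-2.013) also was not; these fits hold 4 libraries. Runx2 with 1 µM at 24 h was called without the count filter (-0.76), with the replicate block (-0.76), within replicates 3 and 4 (-0.76), with DESeq2 (-0.76) and in the 24-library fit (-0.76). Runx3 with 10 µM at 3 h was called in the same 5 settings, at -0.91, -0.90, -0.88, -0.91 and -0.91. For DMSO over time, Runx1 was not called within replicates 1 and 2 (0.64) or 3 and 4 (0.54) nor Runx2 within replicates 1 and 2 (0.56), and Runx3 was called with the replicate block (0.58), within replicates 3 and 4 (0.64), with DESeq2 (0.59) and in the 24-library fit (0.59). Over time with 10 µM, Runx3 was called with the replicate block (-0.40) and Cbfb with DESeq2 (-0.15). Between the times, the 10 µM effect on Runx2 was called with the replicate block (-0.50), and that on Runx3 was not without the filter (-0.99). Cbfb with 1 µM at 24 h was 0.021 within replicates 3 and 4, and Runx1 with 1 µM at 3 h was -0.015 within replicates 1 and 2.

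The count of called genes with 10 µM at 24 h (963) was 1645 with the replicate block, 6 within replicates 1 and 2, 1573 with DESeq2 and 1870 in the 24-library fit. With 1 µM at 24 h (12) it was 0 and 29 within replicates 1 and 2 and 3 and 4, 60 with DESeq2 and 95 in the 24-library fit. With 10 µM at 3 h (1) it was 142 with no filter, 335 with the replicate block, 4 and 48 within replicates 1 and 2 and 3 and 4, 482 with DESeq2 and 52 in the 24-library fit. With 1 µM at 3 h (0) it was 2 with the replicate block and 1 and 2 within the replicate pairs. For DMSO over time (1494) it was 44 within replicates 1 and 2 and 2739 in the 24-library fit, and within replicates 1 and 2 it was 2113 over time with 10 µM (4897) and 1349 with 1 µM (3417). Between doses it was 847 with DESeq2 at 24 h (559) and 1, 3 and 4 with no filter, the replicate block and DESeq2 at 3 h (0). For the 10 and 1 µM effects between times (432 and 6) it was 674 and 15 with DESeq2. The causes were not tested.

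Without 1 library at a time, log2 values ranged from 0.55 to 0.71 for Runx1 with 10 µM at 24 h, -0.88 to -0.70 for Runx2 with 1 µM at 24 h, 0.51 to 0.65 and 0.37 to 0.77 for Runx1 and Runx3 in DMSO over time, and -0.51 to -0.30 for Runx3 over time with 10 µM. They ranged from -1.16 to -0.78 and -1.72 to -1.32 for the 10 and 1 µM effects on Runx3 between times, -0.063 to 0.034 for Cbfb with 1 µM at 24 h, -0.011 to 0.027 for Cbfb with 10 µM at 3 h, and -0.170 to 0.049 and -0.206 to 0.061 for Runx2 between doses at 24 and 3 h. Uncalled genes that changed sign were Col10a1 (-0.066 to 0.868) and Spp1 (-0.41 to 1.01, and -0.70 within replicates 1 and 2) with 10 µM at 24 h, Spp1 with 1 µM at 24 h (-0.37 to 0.78, and -0.13 within replicates 3 and 4), and Ptch1 at 3 h with 10 µM (-0.26 to 0.10) and 1 µM (-0.17 to 0.19, and 0.007 within replicates 3 and 4). The counts of called genes ranged from 491 to 1242 and 7 to 12 with 10 and 1 µM at 24 h, 1 to 11 and 0 to 1 at 3 h, 791 to 1600 in DMSO over time, 275 to 593 between doses at 24 h and 3 to 10 for the 1 µM effect between times. The replicate block changed no other member's call. In the 3 h comparisons and DMSO over time, only 3 of 4 pairs of same-numbered libraries correlated at over 0.1 (lowest 0.0802, 0.0951 and 0.0767 for 10 µM, 1 µM and DMSO), so the number is not taken as a pairing there. Shares of the family moved by more than 1 SD in 20 of 24 cases when gene length was left out. Given the spread among 4 libraries per group, and 139 to 3437 counts per library, differences smaller than the intervals given were not detectable.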
